A study of Homo sapiens with 6 samples.

Results

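Decitabine is a deoxycytidine analog, and the genes described here encode the proteins that carry it into the cell, activate it, break it down or provide the deoxynucleotides that compete with it. The 10 genes were chosen by name for these roles, with earlier results of these data known. They are DCK, CDA, SLC29A1, SLC29A2, SAMHD1, DCTD, CMPK1, RRM1, RRM2 and RRM2B. All 10 were present among the 17100 transcripts of the table, and all 10 were among the 13322 genes with enough counts to be tested. Guadecitabine (SGI-110) is a dinucleotide of decitabine and deoxyguanosine that releases decitabine, an inhibitor of DNA methyltransferases. The cells were MDA-MB-231, a human breast adenocarcinoma cell line in long use. Sequenced RNA came from 3 cultures given vehicle and 3 given 1 µM guadecitabine over 96 h, with harvest after a further 24 h without drug, and each gave 1 library. Both groups are of this 1 cell line, the study's methods describe independent experiments, and the composition of the vehicle is not given in the sources used here.

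Nucleoside drugs enter cells through equilibrative transporters in the membrane. Inside the cell decitabine is phosphorylated stepwise, first by deoxycytidine kinase, then by the monophosphate kinase and by nucleoside diphosphate kinases, and the triphosphate is built into DNA during S phase, where it traps DNA methyltransferases. Deaminases convert the nucleoside or its monophosphate to a uridine form, SAMHD1 removes the triphosphate, and ribonucleotide reductase makes the natural deoxynucleotides with which the drug competes.

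The vehicle libraries held 17602570 to 22277442 counts and the guadecitabine libraries 8792127 to 21410849, with guadecitabine replicate 2 the shallowest. Vehicle replicate 3 stood apart, since only 20 of its transcripts had no count, where the other vehicle libraries had 2498 and 2517 such transcripts. A set of 533 genes had at most 1 count in each of those 2 libraries and was chosen to have counts in the guadecitabine libraries. In vehicle replicate 3 these genes had a median of 7.10 counts per kb. This low level of reads would make up 0.205% of the counts of SLC29A1 and 4.43% of those of RRM2B in that library, the extremes of the 10 genes. The mesenchymal markers VIM, CD44 and AXL of this cell line had at least 5255 counts in every library, whereas ESR1 and PGR, the hormone receptors it lacks, had 0 or 1 count in 5 libraries and 67 and 43 counts in vehicle replicate 3. ERBB2, the third receptor expected to be absent, had 552 to 1974 counts. PTPRC and CDH5, markers of blood cells and endothelium, had 0 to 4 counts in 5 libraries and 36 and 18 in vehicle replicate 3, CD14 had 91 to 257, PECAM1 had 39 to 104, and VWF had 4 to 11 counts in 5 libraries and 66 in vehicle replicate 3.

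The 10 genes lie on 7 chromosomes of hg19, and the values below are sums over all exons of 1 RefSeq transcript each. SLC29A1 lies on chromosome 6 from 44187242 to 44201888 on the plus strand, and SLC29A2 on chromosome 11 from 66129992 to 66139947 on the minus strand. DCK lies on chromosome 4 from 71859265 to 71896629 and CMPK1 on chromosome 1 from 47799469 to 47844511, both on the plus strand. CDA lies on chromosome 1 from 20915444 to 20945400 on the plus strand, DCTD on chromosome 4 from 183811244 to 183838630 on the minus strand, and SAMHD1 on chromosome 20 from 35520227 to 35580246 on the minus strand. RRM1 lies on chromosome 11 from 4115924 to 4160106 and RRM2 on chromosome 2 from 10262695 to 10271546, both on the plus strand. RRM2B lies on chromosome 8 from 103216729 to 103251346 on the minus strand. In 7 of the genes every stretch of 50 bases of the spliced transcript was found nowhere else in the genome, and this share was 99.3% in CMPK1, 96.4% in RRM2B and 87.0% in RRM2, so that reads over the repeated stretches of RRM2 are uncertain.

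In the comparison of guadecitabine with vehicle, 3 of the 10 genes passed an adjusted p of 0.05 (edgeR quasi-likelihood F test, p-values adjusted by Benjamini-Hochberg over all 13322 genes). CDA, the cytidine deaminase that inactivates decitabine, was 1.51-fold higher, and RRM2, the regulated small subunit of ribonucleotide reductase, was 1.42-fold higher. SLC29A2, the minor equilibrative transporter, fell to 0.500 of its vehicle level. DCK, DCTD, RRM1, RRM2B, CMPK1, SAMHD1 and SLC29A1 were not called. Of all genes tested, 37.7% were called, 19.3% higher and 18.4% lower, so that the 3 calls among 10 genes were no more frequent than in the background. The groups did not overlap in 5 of the 10 genes, against 51.7% of all genes tested. The median log2 fold change was 0.21 over the 10 genes and 0.02 over all genes, 7 of the 10 were above 0 against 51.2% of all genes, and the median size of the change regardless of sign was 0.25 against 0.38.

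**Figure D1:**
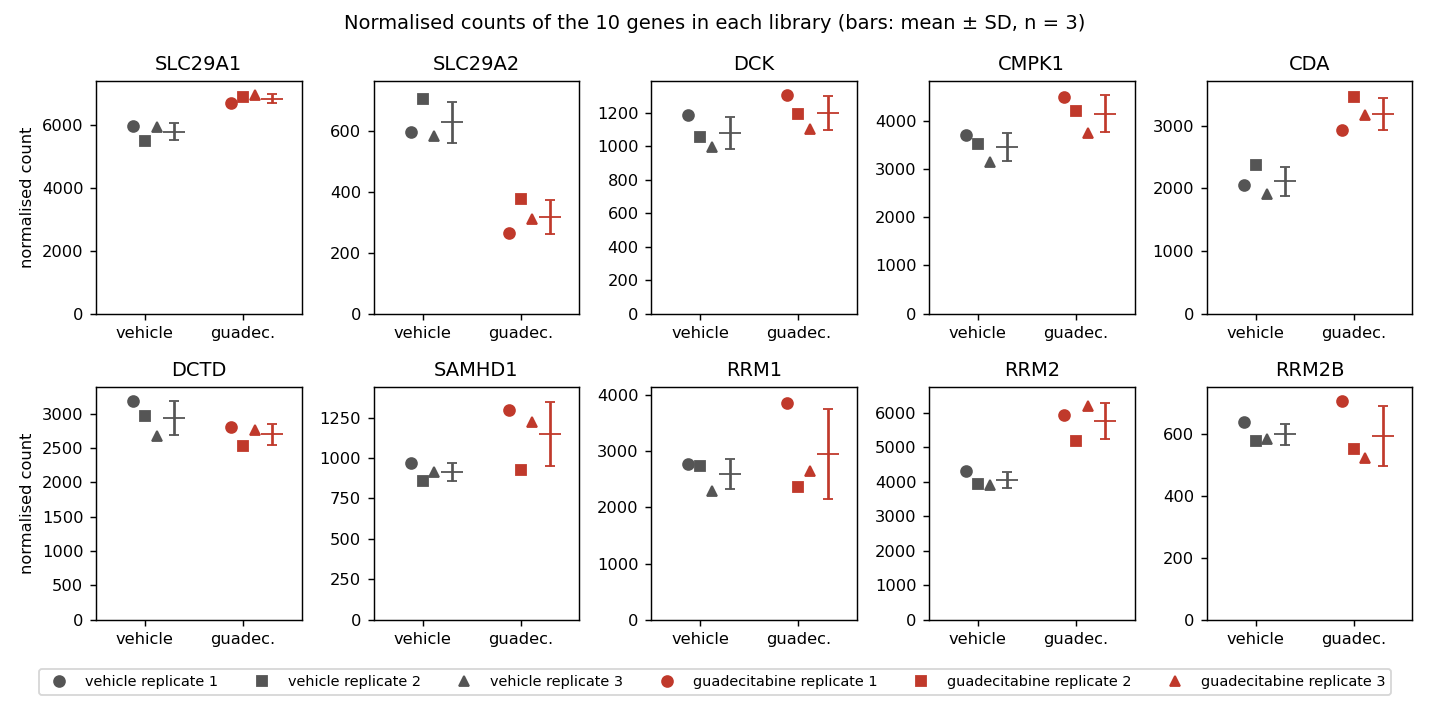
Normalised counts (linear axes from 0) of each of the 10 genes in the 3 vehicle (grey) and 3 guadecitabine (red) libraries, with the marker shape giving the replicate number and the bars the mean ± SD. CDA, SLC29A1, CMPK1 and RRM2 sat higher and SLC29A2 lower in all guadecitabine libraries, and the groups of the other 5 genes overlapped.

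The sequences before the start sites of the 2 genes that rose are shown because guadecitabine acts on methylation at CG dinucleotides, which are in capitals here. They were taken from RefSeq (GRCh38.p14), matched base for base on the plus strand of GRCh37 (hg19), and only the part before the deposited transcript start is printed. For CDA this is chr1:20915340-20915443, with 104 bases, and for RRM2 chr2:10262445-10262694, with 250 bases.
CDA: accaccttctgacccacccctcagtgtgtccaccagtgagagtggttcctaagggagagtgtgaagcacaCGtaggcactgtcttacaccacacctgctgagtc
RRM2: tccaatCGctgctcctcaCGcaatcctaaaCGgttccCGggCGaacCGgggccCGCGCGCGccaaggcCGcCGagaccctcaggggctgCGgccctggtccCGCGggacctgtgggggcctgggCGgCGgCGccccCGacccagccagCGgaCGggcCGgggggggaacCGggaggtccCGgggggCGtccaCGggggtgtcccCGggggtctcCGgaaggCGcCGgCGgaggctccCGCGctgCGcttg
The stretch of CDA holds 1 CG and that of RRM2 holds 34. In the full 250 bases before the RefSeq start site, CDA has 5 CG dinucleotides, a number reached by 65.7% of the 35116 promoters in the table, and RRM2 has 34, reached by 6.84%. The median promoter has 11. The table held entries for 8 of the 10 genes, all but SLC29A2 and RRM2B. Among the uncalled genes the number was 31 in DCK, 19 in SLC29A1, 14 in SAMHD1, 40 in DCTD, 16 in CMPK1 and 18 in RRM1. CDA thus had the fewest CG of the 8 genes, and RRM2 fell between the uncalled DCK and DCTD. DNA methylation was not analysed here, and these counts describe the reference sequence only.

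SLC29A1 encodes ENT1, the main equilibrative nucleoside transporter of the cell surface. Its normalised counts, which are counts scaled to a common library size of 17162500, were 5955, 5475 and 5947 in vehicle replicates 1 to 3 and 6696, 6886 and 6942 in guadecitabine replicates 1 to 3. Every guadecitabine library was higher than every vehicle library. The means were 5792 ± 275 (SD, n = 3) and 6841 ± 129 (SD, n = 3), a fold of 1.18, and the log2 fold change of 0.24 with a 95% interval from 0.03 to 0.45 did not pass the threshold (edgeR adjusted p = 0.0653). It passed with the Wald test of DESeq2 (log2 fold change 0.23, adjusted p = 0.0217) and when libraries were scaled by their totals alone in edgeR (0.27, adjusted p = 0.0411).

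SLC29A2 encodes the related transporter ENT2. Its normalised counts were 598, 706 and 583 in the vehicle libraries and 266, 376 and 310 in the guadecitabine libraries. The groups were far apart, and the highest guadecitabine library lay well under the lowest vehicle library. The mean dropped from 629 ± 67.3 to 317 ± 55.6 (SD, n = 3 each), with a log2 fold change of -1.001 (SE 0.147, 95% interval -1.33 to -0.67, edgeR adjusted p = 0.000806). This was the largest change among the 10 genes. Without vehicle replicate 3 the log2 fold change was -1.05, and on the log2 values deposited by the authors, which are moderated toward the mean of all libraries, the difference was -0.59. The raw counts behind it were 193 to 788 a library, so that counting error alone would give a coefficient of variation of 7.20% in the smallest library.

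Within each library the reads per kb of SLC29A2 over those of SLC29A1, a ratio that does not depend on scaling between libraries, were 0.0915, 0.118 and 0.0894 in vehicle and 0.0363, 0.0499 and 0.0407 in guadecitabine replicates 1 to 3. The ratio of the 2 transporters was lower in all 3 treated libraries, and the vehicle mean was 2.36 times the guadecitabine mean. By an exact permutation test (two-sided) p was 0.1, the smallest that 3 against 3 libraries allow, and 0.15 after adjustment over 6 ratios, so that no such ratio could pass 0.05.

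The other nucleoside transporters were low or not called. SLC29A3, the lysosomal and mitochondrial ENT3, had 115 to 332 counts and a log2 fold change of -0.13 (edgeR adjusted p = 0.475), and SLC29A4 had 12 to 91 counts. Of the concentrative transporters, SLC28A3 had 1, 5 and 53 counts in vehicle and 19, 3 and 24 in guadecitabine replicates 1 to 3. SLC28A1 and SLC28A2, at 0 in vehicle replicates 1 and 2, at 25 and 10 in vehicle replicate 3 and at 0 to 5 in the guadecitabine libraries, were not tested. Of the 3 genes tested 0 were called in edgeR or DESeq2 and 0 had an unadjusted p under 0.05, with a median log2 fold change of -0.13. The intervals of SLC29A4 and SLC28A3 are wide at these counts, and without vehicle replicate 3 1 of the list was called higher.

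DCK encodes deoxycytidine kinase, which adds the first phosphate to decitabine. Its normalised counts were 1186, 1054 and 998 in the vehicle libraries and 1306, 1190 and 1103 in the guadecitabine libraries. The groups overlapped, with the highest vehicle library above the lowest guadecitabine library. The means were 1079 ± 96.9 and 1199 ± 102 (SD, n = 3 each). The log2 fold change of 0.15 was not called (95% interval -0.11 to 0.41, edgeR adjusted p = 0.325). DCK was called in 0 of 14 alternative settings, with log2 fold changes between 0.09 and 0.23.

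CMPK1 encodes the UMP/CMP kinase, which adds the second phosphate. It had 3711, 3527 and 3138 normalised counts in vehicle and 4489, 4208 and 3740 in guadecitabine replicates 1 to 3. The groups did not overlap, but the lowest guadecitabine library was only just above the highest vehicle library. The means were 3459 ± 293 and 4146 ± 378 (SD, n = 3 each), with a log2 fold change of 0.26 (95% interval 0.01 to 0.51) that was not called (edgeR adjusted p = 0.0967). With libraries scaled by their totals alone it was called (0.30, edgeR adjusted p = 0.0459).

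Of the 13 other nucleoside and nucleotide kinases tested, 3 were higher, 2 lower and 8 not called, with a median log2 fold change of -0.17. The 5 calls among 13 genes were close to the 37.7% called among all genes. The number higher was 1 without guadecitabine replicate 3, and the number lower was 1 without vehicle replicate 1, vehicle replicate 2 or guadecitabine replicate 3 and 4 without vehicle replicate 3 or guadecitabine replicate 2. TK2, the mitochondrial thymidine kinase, which also phosphorylates deoxycytidine, had 117 to 345 counts in guadecitabine and 745 to 1128 in vehicle libraries, and its log2 fold change was -1.60 (SE 0.115, edgeR adjusted p = 1.2e-05). TK1, the cytosolic thymidine kinase of proliferating cells, was called lower at -0.52 although its groups overlapped (edgeR adjusted p = 0.0380). NME6, of the nucleoside diphosphate kinase family that adds the last phosphate, was higher at 0.66, and UCK2, the uridine-cytidine kinase that phosphorylates azacitidine but not deoxynucleosides, was higher at 0.41. The log2 fold change was 0.33 for NME1 (edgeR adjusted p = 0.0823) and -0.39 for DTYMK (edgeR adjusted p = 0.177), and neither was called. NME2 was called higher on 1, 2 and 0 counts in vehicle and 28, 12 and 16 in guadecitabine libraries, but it overlaps a readthrough transcript with NME1 and is near-identical to NME1 in part, so that its counts are uncertain and no fold is given. CMPK2, the mitochondrial counterpart of CMPK1, had 3 to 21 counts and was not tested.

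CDA encodes cytidine deaminase, which converts decitabine to an inactive uridine analog. It had 2055, 2367 and 1905 normalised counts in vehicle and 2936, 3456 and 3163 in guadecitabine replicates 1 to 3. All guadecitabine libraries lay above all vehicle libraries, with a gap between the groups that exceeded the spread within each. The means were 2109 ± 236 and 3185 ± 260 (SD, n = 3 each), and the log2 fold change was 0.59 (SE 0.118, 95% interval 0.33 to 0.86, edgeR adjusted p = 0.00405), or 1.51-fold with an interval from 1.26 to 1.82. The call did not depend on vehicle replicate 3, without which the log2 fold change was 0.53 (edgeR adjusted p = 0.00711).

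CDA and DCK compete for the same nucleoside, one breaking it down and the other activating it. The ratio of CDA to DCK in reads per kb was 4.71, 6.10 and 5.19 in the vehicle libraries and 6.11, 7.89 and 7.79 in the guadecitabine libraries. The groups did not overlap, but vehicle replicate 2 and guadecitabine replicate 1 were nearly equal. The means were 5.33 ± 0.707 and 7.26 ± 1.00 (SD, n = 3 each), a difference of 1.36-fold (two-sided exact permutation p = 0.1, adjusted 0.15).

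DCTD encodes deoxycytidylate deaminase, which acts on the monophosphate. Its normalised counts were 3182, 2961 and 2681 in vehicle and 2808, 2527 and 2760 in guadecitabine replicates 1 to 3, so that the groups overlapped. The log2 fold change was -0.12 (95% interval -0.36 to 0.12, edgeR adjusted p = 0.392) between means of 2941 ± 251 and 2699 ± 150 (SD, n = 3 each). Set against DCK in the same library, DCTD was at 3.46, 3.62 and 3.47 in vehicle and 2.78, 2.74 and 3.23 in guadecitabine libraries in reads per kb. This ratio did not overlap between groups, with a vehicle mean 1.21 times the guadecitabine mean (two-sided exact permutation p = 0.1, adjusted 0.15). Neither gene was called on its own. The share of ratios without overlap among other pairs of genes was not determined, and 51.7% of single genes tested did not overlap.

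SAMHD1 encodes a triphosphohydrolase that cleaves deoxynucleoside triphosphates, decitabine triphosphate among them. Its normalised counts were 972, 860 and 913 in the vehicle libraries and 1299, 926 and 1221 in the guadecitabine libraries. Guadecitabine replicates 1 and 3 were high, whereas replicate 2, the shallowest library, fell within the vehicle range. The means were 915 ± 55.9 and 1149 ± 196 (SD, n = 3 each), with a log2 fold change of 0.33 (95% interval 0.02 to 0.64) that was not called (edgeR adjusted p = 0.0854). Without guadecitabine replicate 2 it was called, at 0.46 (edgeR adjusted p = 0.0131). The ratio of SAMHD1 to DCK overlapped between the groups, with means of 0.742 in vehicle and 0.838 in guadecitabine (two-sided exact permutation p = 0.4, adjusted 0.4).

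**Figure D2:**
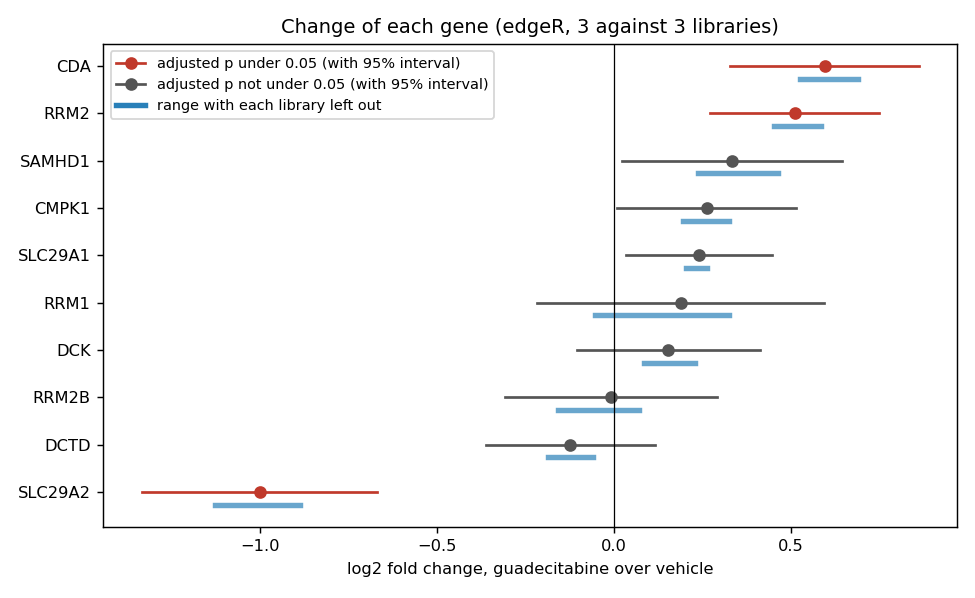
Log2 fold change (guadecitabine over vehicle) of each of the 10 genes from edgeR, with 95% intervals, red where the adjusted p was under 0.05 and grey otherwise, and in blue the range of the value when each library was left out in turn. The intervals of CDA, RRM2 and SLC29A2 lay clear of 0. Those of SLC29A1, SAMHD1 and CMPK1, which were not called, left out 0 only narrowly, with lower ends of 0.03, 0.02 and 0.01. The left-out ranges of RRM1 and RRM2B crossed 0, and those of the other genes did not.

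Of 9 nucleotidases and triphosphate hydrolases tested, 1 was higher, 3 were lower and 5 were not called, with a median log2 fold change of -0.24, and 37.7% of all genes were called. NT5M, the mitochondrial deoxynucleotidase, had 7 to 14 counts in guadecitabine and 41 to 70 in vehicle libraries and a log2 fold change of -1.92 (edgeR adjusted p = 0.0105), and NT5C, its cytosolic counterpart, was lower at -0.76 (edgeR adjusted p = 0.00928). DUT, which removes dUTP, was called lower at -0.70 although its groups overlapped (edgeR adjusted p = 0.0408). DCTPP1, which hydrolyses dCTP and modified forms of it, decitabine triphosphate among them, was higher at 0.58 (edgeR adjusted p = 0.0178), a call that was lost without guadecitabine replicate 2 and without guadecitabine replicate 3. NT5C2 was at 0.05 and was not called (edgeR adjusted p = 0.814).

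All 5 genes of nucleoside breakdown tested were called, 4 higher and 1 lower, with a median log2 fold change of 1.32. Of all genes tested, 19.3% were called higher and 18.4% lower. Thymidine phosphorylase TYMP rose by 1.59 on the log2 scale, or 3.01-fold (edgeR adjusted p = 0.00101), and adenosine deaminase ADA by 1.35 (edgeR adjusted p = 0.00403). Purine nucleoside phosphorylase PNP rose 2.50-fold (edgeR adjusted p = 2.5e-05). Dihydropyrimidine dehydrogenase DPYD, the first enzyme of uracil and thymine breakdown, was lower at -1.29 (edgeR adjusted p = 0.000632). The rise of CDA was smaller in value than those of TYMP, ADA and PNP, and the differences between genes were not tested.

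RRM1 encodes the large subunit of ribonucleotide reductase. It had 2771, 2737 and 2286 normalised counts in vehicle and 3857, 2362 and 2642 in guadecitabine replicates 1 to 3. Guadecitabine replicate 1 stood alone above all other libraries, and the other guadecitabine libraries were within the vehicle range. The log2 fold change was 0.19 (95% interval -0.22 to 0.59, edgeR adjusted p = 0.444) between means of 2598 ± 271 and 2953 ± 795 (SD, n = 3 each), and it was -0.05 without guadecitabine replicate 1.

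RRM2 encodes the small subunit that sets the activity of the reductase in S phase. Its normalised counts were 4314, 3941 and 3904 in the vehicle libraries and 5942, 5176 and 6191 in the guadecitabine libraries. Every guadecitabine library was above every vehicle library, by more than the vehicle libraries differed among themselves. The means were 4053 ± 227 and 5770 ± 529 (SD, n = 3 each), with a log2 fold change of 0.51 (SE 0.106, 95% interval 0.27 to 0.75, edgeR adjusted p = 0.00513), or 1.42-fold with an interval from 1.21 to 1.68. Without vehicle replicate 3 it was 0.48 (edgeR adjusted p = 0.00983). In these bulk libraries, more cells in S phase and more RNA per cell cannot be told apart.

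RRM2B encodes p53R2, the small subunit induced by p53 and used outside S phase. Its normalised counts were 640, 578 and 585 in vehicle and 707, 554 and 525 in guadecitabine replicates 1 to 3, and the groups overlapped. The means were 601 ± 34.0 and 595 ± 97.6 (SD, n = 3 each), with a log2 fold change of -0.01 and a 95% interval from -0.31 to 0.29 (edgeR adjusted p = 0.967). Its sign turned with the library left out.

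The ratio of RRM2B to RRM2 in reads per kb was 0.103, 0.102 and 0.104 in vehicle and 0.0828, 0.0745 and 0.0591 in guadecitabine replicates 1 to 3. The vehicle libraries were almost equal, and every guadecitabine library was lower, with means of 0.103 and 0.0721. Taken from the mean log2 ratios, vehicle was 1.45 times guadecitabine (two-sided exact permutation p = 0.1, adjusted 0.15). The ratio of RRM2 to RRM1 averaged 1.46 in vehicle and 1.88 in guadecitabine and overlapped between the groups, with guadecitabine replicate 1, in which RRM1 was high, inside the vehicle range (two-sided exact permutation p = 0.3, adjusted 0.36).

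**Figure D3:**
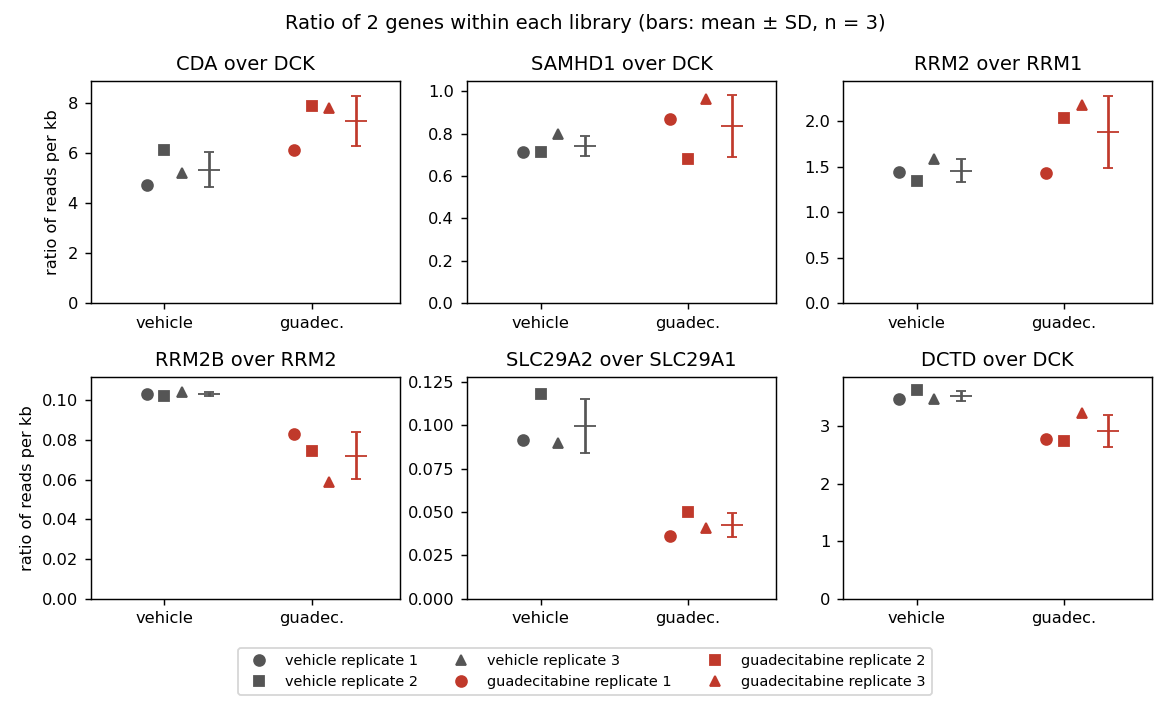
Ratio of 2 of the genes within each library in reads per kb (linear axes from 0), for 6 pairs, with the marker shape giving the replicate number, grey for vehicle, red for guadecitabine and bars for the mean ± SD. The groups were apart for CDA over DCK, RRM2B over RRM2, SLC29A2 over SLC29A1 and DCTD over DCK, and overlapped for the other 2 ratios. How often ratios of other gene pairs are apart was not determined.

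Of 15 other genes of S phase 2 were higher, 8 lower and 5 not called, against 19.3% higher and 18.4% lower among all genes. Their median log2 fold change was -0.39, beside 0.02 over all genes and 0.51 for RRM2, and RRM2 was not tested against them. MCM5 and MCM6, subunits of the replicative helicase, were lower at -1.11 and -0.82 (edgeR adjusted p = 0.000155 and 0.00919), and PCNA was lower at -0.62. CCNE1, the G1/S cyclin, and CDC6, which loads the helicase, were higher at 0.76 and 0.61 (edgeR adjusted p = 0.000587 and 0.00656).

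In pyrimidine and thymidylate synthesis, which makes the nucleotides that compete with the drug, 0 of 9 genes were higher, 5 were lower and 4 were not called in edgeR, with a median log2 fold change of -0.44. Among all genes tested, 19.3% were called higher and 18.4% lower. Of the 9, 1 was higher at an unadjusted p under 0.05 in edgeR, and 0 were called higher in DESeq2. DHODH, SHMT1, SHMT2 and CAD were lower at -0.95, -0.92, -0.56 and -0.47. TYMS, the thymidylate synthase, was at -0.02 (edgeR adjusted p = 0.921). With libraries scaled by their totals alone 1 gene of this list was called higher.

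RRM2B is listed among p53 targets in general, and the 16 other p53 targets examined gave 7 higher, 1 lower and 8 not called, with a median log2 fold change of 0.15. The shares over all genes tested were 19.3% higher and 18.4% lower. CDKN1A, the cyclin-dependent kinase inhibitor p21, rose by 1.71 and the death receptor FAS by 1.28 on the log2 scale (edgeR adjusted p = 4.1e-05 and 0.00307), AEN rose by 0.74, and XPC was lower at -0.68. Only 3 of the list were called higher without vehicle replicate 1, without vehicle replicate 2 or without guadecitabine replicate 3. SAMHD1 is induced by interferon in several cell types, and of 18 interferon-induced genes 16 were higher, 0 lower (0 also at an unadjusted p under 0.05 and in DESeq2) and 2 not called in edgeR, with a median log2 fold change of 1.12. Again the shares over all genes were 19.3% higher and 18.4% lower. RSAD2 rose by 2.01, ISG20 by 1.69, DDX58 by 1.69 and IFIT3 by 1.66 on the log2 scale, beside the 0.33 of SAMHD1 that was not called. The interval of SAMHD1 ended at 0.64, under the median of this list.

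**Figure D4:**
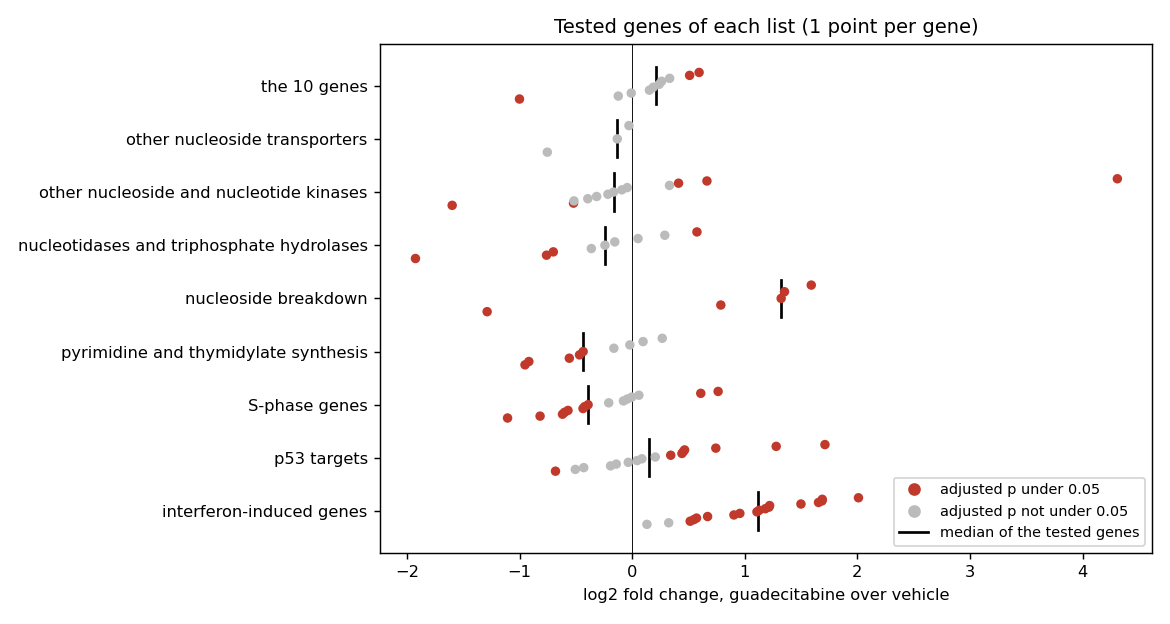
Log2 fold change (guadecitabine over vehicle) of each tested gene in the 10 genes and in 8 further lists, red where the edgeR adjusted p was under 0.05 and grey otherwise, with a black line at the median of the list. The nucleoside breakdown and interferon-induced lists had medians of 1.32 and 1.12 and the 10 genes one of 0.21, and the point farthest to the right is NME2, whose counts are uncertain.

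Between genes, levels were compared as normalised reads per kb of counted exon. In vehicle the order was SLC29A1 at 2493 ± 118, CDA at 2199 ± 246, DCTD at 1457 ± 124, CMPK1 at 1180 ± 99.96, RRM2 at 1180 ± 66.0, RRM1 at 814 ± 84.9, DCK at 414 ± 37.2, SAMHD1 at 307 ± 18.8, SLC29A2 at 247 ± 26.4 and RRM2B at 122 ± 6.89 (SD, n = 3 each). The ranges of SLC29A1 and CDA overlapped, as did those of CMPK1 and RRM2, and all other neighbours were apart.

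In guadecitabine CDA came first at 3321 ± 271, above SLC29A1 at 2945 ± 55.5 in every library, followed by RRM2 at 1680 ± 154, CMPK1 at 1415 ± 129 and DCTD at 1337 ± 74.4 (SD, n = 3 each). RRM2 overlapped with CMPK1 and CMPK1 with DCTD. Then came RRM1 at 926 ± 249, DCK at 460 ± 39.1, SAMHD1 at 385 ± 65.8, SLC29A2 at 125 ± 21.8 and RRM2B at 121 ± 19.8. DCK overlapped with SAMHD1 and SLC29A2 with RRM2B, so that SLC29A2 had come down to the level of the lowest of the 10 genes.

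Among all 13322 genes tested, CDA exceeded 94.3% in vehicle and 96.6% in guadecitabine in reads per kb, and SLC29A1 exceeded 95.1% and 96.0%. DCK exceeded 73.1% and 74.5%, so that the activating kinase was at an intermediate level in both groups. SLC29A2 went from above 62.7% to above 46.4% of genes, whereas RRM2B stayed at 46.5% and 45.7%. The place of CDA depended on its short transcript, since by normalised counts without length it ranked 6 of the 10 in vehicle and 4 in guadecitabine.

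**Figure D5:**
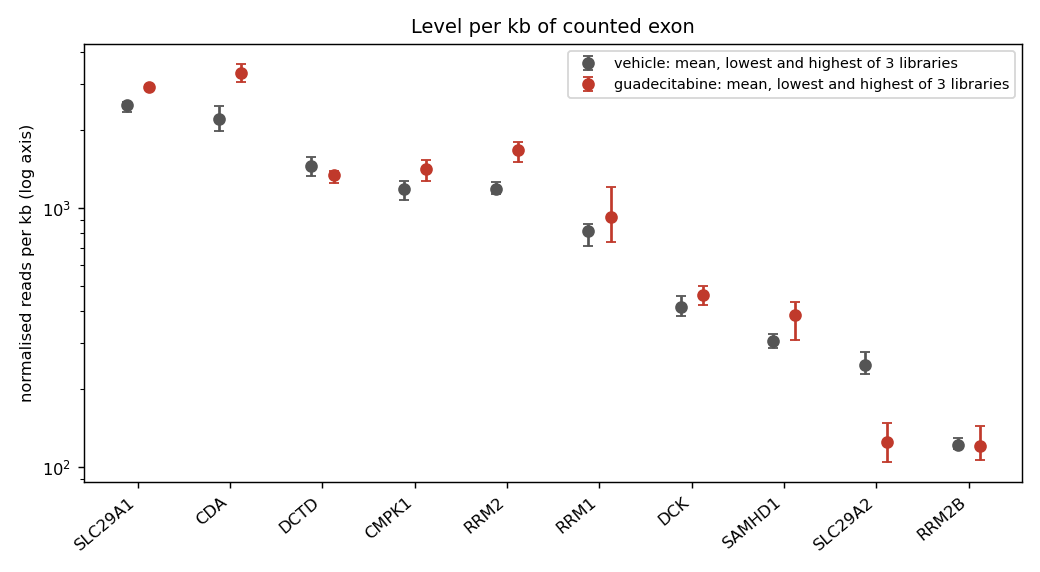
Normalised reads per kb of counted exon (log axis) of the 10 genes in order of their vehicle level, as the mean with the lowest and highest of 3 vehicle (grey) and 3 guadecitabine (red) libraries. CDA rose above SLC29A1, RRM2 above DCTD, and SLC29A2 came down from 247 to 125, beside RRM2B at 122 and 121.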

How the data were processed

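RNA sequencing libraries of MDA-MB-231 cells were assigned to 3 vehicle and 3 guadecitabine samples by their labels. The authors aligned reads to hg19 with STAR (2.3.1z in the submitters' processing notes) and deposited raw counts of exon reads per RefSeq transcript from iRNA-seq. Read length, strand setting and the treatment of reads with several matches are not given in the sources used here. The authors also deposited regularized log2 values from DESeq2 (version not given), used only as an alternative, and columns of their own comparison (mean level, log2 fold change, standard error, statistic, p-value and adjusted p-value), which were not used.

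The test was the quasi-likelihood F test of edgeR (4.0.16, under R 4.3.3), on genes passing filterByExpr with a minimum count of 10 and with TMM factors, and p-values were adjusted by Benjamini-Hochberg with a threshold of 0.05. The fit was tested on simulated data. Library totals, and so the counting error of each value, are given with the results. Intervals are 95% intervals of the fit. Exact permutation tests of ratios were two-sided. Alternatives were DESeq2 1.42.0, other scalings and filters, the replicate number as a block, limma 3.58.1 on the deposited log2 values and each library left out. Subtracting the background of vehicle replicate 3 was chosen after seeing the data. The 10 genes, the ratios and all lists were chosen with earlier results of these data known. Named from each further list were the called genes with the largest changes, up to 4, with TK1, TYMS, DTYMK, DUT, NT5C2, CMPK2, NME1 and NME2. UCK2, CDC6 and the transporters of the SLC28 and SLC29 families outside the 10 genes were named after their values were seen. NT5C1B, UPP2 and CD3E were not analysed here. One blood cell marker is not reported here. Deposited start positions count from 0 and were raised by 1. Exon models came from GENCODE on GRCh37.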

Additional observations from a re-analysis of the deposited data

How the results depend on the processing

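CDA, SLC29A2 and RRM2 kept their direction and their call in 14 of 14 alternatives, with log2 fold changes from 0.48 to 0.69, from -1.13 to -0.59 and from 0.42 to 0.58 and largest adjusted p-values of 0.0281, 0.00951 and 0.0364. Of the 140 values of the 10 genes under these alternatives 130 kept direction and call. SLC29A1 was called with the Wald test of DESeq2 (0.23) and with library totals alone (0.27). CMPK1 was called with library totals alone (0.30), which made 4 of the 10 genes higher. SAMHD1 ranged from 0.24 to 0.46 with each library left out and was called without guadecitabine replicate 2. RRM1 ranged from -0.053 without guadecitabine replicate 1 to 0.33. RRM2B, near 0 throughout, was at 0.028 with library totals alone and at 0.0076 with no filter, and ranged from -0.16 to 0.071 with each library left out. Over all genes, 1706 to 3002 were higher and 1629 to 2575 lower with each library left out, the lowest without guadecitabine replicate 3 and the highest without vehicle replicate 3. The cause of these shifts was not tested. Of the counts over the further lists, 205 stayed within 1.5 times and 19 did not. Whether same-numbered libraries of the groups belonged together is not given in the sources used here. The deviations of same-numbered libraries had correlations of -0.05, 0.05 and -0.04, and with so few libraries these cannot exclude pairing. The replicate block gave 2424 genes higher and 2230 lower, with 2 of the 10 genes higher and 1 lower, CDA at 0.60, SLC29A2 at -0.998 and RRM2 at 0.51, and it changed no call of the 10 genes. DCK and DCTD were called in 0 of 14 alternatives.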
